A study of Mus musculus with 6 samples.

Results

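AGO2 clusters at the ends of genes were taken as all clusters that overlapped, on the same strand, the last 1000 nt of a protein-coding gene body as RefSeq places it on mm10. By this rule 15340 of the 359172 AGO2 clusters of the WT library were gene-end clusters, as were 21717 of 616014 in the first *Mov10* Deletion library and 21718 of 616005 in the second. They made up 4.27% of all clusters in WT and 3.53% in each *Mov10* Deletion library. They lay in 7888 genes in WT and in 8773 genes in each *Mov10* Deletion library, with a median of 2 clusters per gene. The comparison set was every other cluster on the same strand of the same genes, 215927 in WT, 404188 in the first *Mov10* Deletion library and 404185 in the second.

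The clusters came from chimeric AGO2 eCLIP, in which RNA is UV crosslinked to AGO2, immunoprecipitated (IP) and sequenced, and in which some reads join a miRNA to its target. The brains were whole brains of C57Bl/6J mice at P0, with 1 IP library from WT and 2 from *Mov10* Deletion, each with a size-matched input. The *Mov10* Deletion libraries are called Deletion 1 and Deletion 2 here. In *Mov10* Deletion mice, exons of *Mov10* between LoxP sites are removed by a Cre driven from *Emx1*, which acts in excitatory neurons of neocortex and hippocampus, on a background that also carries a *Mov10* heterozygous mutation, so other cells of the whole brain keep a functional allele. With 1 WT library, genotype and library cannot be told apart, and no test between genotypes was made. The study describes the IP libraries as made from single P0 brains.

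AGO2 holds a miRNA and is guided by it to mRNAs, mostly through pairing of the miRNA seed with sites in the 3'UTR. The 3'UTR is the last part of an mRNA, so such sites lie toward the end of a gene body. Many 3'UTRs are longer than 1000 nt, and their sites can lie outside the window used here. MOV10 is an RNA helicase that binds 3'UTRs and associates with AGO2.

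The Deletion libraries shared nearly all cluster positions, with 21633 gene-end clusters at identical coordinates, whereas WT shared 3 with either. Agreement of positions between Deletion 1 and Deletion 2 is therefore no replication, while their IP over input values are separate measurements. Enriched clusters are those whose deposited log2 IP over input and −log10 p both reached 3. Total depth is unknown. The IP and input reads of a cluster were worked out from its ratio and p-value, and this puts the fewest IP reads that could be enriched above 1 input read at 16 in WT, 9 in Deletion 1 and 8 in Deletion 2. Intervals below are 95% exact Clopper-Pearson intervals for shares, and cover counting error only.

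Some miRNAs assigned to gene-end clusters are shown first, since their seeds define the sites that follow. miR-124-3p, the most often assigned, and miR-466i-5p are missing because their mature sequences were not available here. No seed match was searched for either. Mature sequences are from RefSeq (GRCm38.p6), with nucleotides 2 to 8, the seed, in capitals. The 3 let-7 members share a seed.
let-7a-5p: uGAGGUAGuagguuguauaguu
let-7b-5p: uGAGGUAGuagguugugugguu
let-7c-5p: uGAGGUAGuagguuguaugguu
miR-9-5p: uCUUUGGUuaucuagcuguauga
miR-125b-5p: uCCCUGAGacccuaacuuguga
miR-181a-5p: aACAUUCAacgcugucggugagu
miR-26a-5p: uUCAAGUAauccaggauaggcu
miR-16-5p: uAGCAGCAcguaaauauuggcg
miR-30c-5p: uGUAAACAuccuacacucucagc

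Sites complementary to these seeds were looked for in enriched gene-end clusters of the same miRNA. Up to 2 genes per miRNA were taken that had an enriched gene-end cluster assigned to it in every library and a single seed match in the last 1000 nt of the last exon, by the lowest of their deposited target scores. Compared by distance from the end, 6 of these 12 genes had the match within the span of that cluster in all 3 libraries, 3 in some of them and 3 in none. Those with none by this count were *Septin8* (miR-181a-5p), *Larp1* (miR-26a-5p) and *Armcx2* (miR-9-5p). The distance of a match was counted back from the end of the GRCm39 transcript, and that of a cluster from the end of the mm10 gene. Where these ends differ, a match can be counted outside a cluster that holds it, or inside one that does not. The first appears to be so for *Septin8*, judged by the positions of *Adam19* and *Larp1* on the same chromosome. Of the 6 genes, 5 are shown on the transcript strand, with the complement of the seed in capitals and GRCm39 positions.
Pag1 (let-7, chr3:9752975-9753003, minus): ccaaccattgcCTACCTCatagggatatt
Zfp385a (miR-125b-5p, chr15:103223212-103223240, minus): acaccccagatCTCAGGGaaccccgcccc
Adam19 (miR-26a-5p, chr11:46038067-46038095, plus): tctatgcaaaaTACTTGAatgggccatgg
Nol4l (miR-30c-5p, chr2:153250357-153250381, minus): agtgtacTGTTTACatgtacagatg
Gigyf1 (miR-30c-5p, chr5:137525956-137525984, plus): agagtggccaaTGTTTACaagccctgagc

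In *Pag1*, an adaptor protein gene, the match ended 447 nt before the transcript end, and let-7a-5p, let-7b-5p and let-7c-5p were each assigned to it in all 3 libraries. The cluster over it had a log2 IP over input of 4.98 in WT, 4.97 in Deletion 1 and 4.46 in Deletion 2, and an inferred 112, 90 and 37 IP reads. In *Gigyf1*, whose protein takes part in translational repression, the match was 224 nt before the end and the log2 values were 5.17, 6.38 and 4.62. In *Adam19*, a membrane metalloprotease gene, the match was 88 nt before the end, inside clusters with log2 values of 5.28, 4.36 and 4.42. Enrichment in every library was a condition of their choice.

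More widely, for 10 of 11 miRNAs searched a seed match was more common, in every library, in genes whose gene-end cluster carried that miRNA than in all genes with a gene-end cluster. miR-124-3p was not among the 11, and the let-7 members among them share a seed, so they are not separate searches. The exception was miR-128-3p (CACTGTG), with a match in 13 of 40 such genes in WT, 15 of 50 in Deletion 1 and 2 of 20 in Deletion 2, against 16.1%, 16.6% and 16.6%. The other letters searched were CTACCTC for let-7, TGTTTAC for miR-30c-5p, TGAATGT for miR-181a-5p, TACTTGA for miR-26a-5p, TGCTGCT for miR-16-5p, CTCAGGG for miR-125b-5p, TTGCACT for miR-301a-3p and ACCAAAG for miR-9-5p, on the transcript strand of the last 1000 nt of the last exon, in genes whose last exon is at least that long. For miR-30c-5p the match was found in 29 of 39 such genes in WT (74.4%), in 19 of 33 in Deletion 1 (57.6%) and in 12 of 13 in Deletion 2 (92.3%), against 648 of 5877 in WT and 11.1% in each Deletion library, of all genes with a gene-end cluster. For let-7c-5p the match was in 40.4%, 33.3% and 7 of 28 such genes, against 7.69% in WT and 6.94% in each Deletion library. For miR-9-5p the shares were lower, at 23.3%, 18.5% and 15.1%, against 9.46%, 9.31% and 9.31%.

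The share of clusters that were enriched was higher at gene ends than elsewhere in the same genes, in every library. In WT, 1446 gene-end clusters were enriched, which is 9.43% (8.97 to 9.90), against 1.82% elsewhere and 2.11% of all clusters of that library. In Deletion 1, 3341 were enriched, or 15.4% (14.9 to 15.9), against 4.85% elsewhere and 5.18% of all clusters. In Deletion 2, 1952 were enriched, or 8.99% (8.61 to 9.38), against 2.93% elsewhere and 3.1% of all clusters.

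The share at the end over the share elsewhere was thus 5.19 (4.90 to 5.50) in WT, 3.17 (3.07 to 3.28) in Deletion 1 and 3.06 (2.93 to 3.21) in Deletion 2. This difference between the genotypes was not seen when the same least number of reads was required in each library. When an enriched cluster had to have at least 16 inferred IP reads, the lowest number that could be enriched in WT, the ratio was 5.19 in WT, 5.02 in Deletion 1 and 5.26 in Deletion 2. Against only those clusters that lay up to 5000 nt before the gene end and outside the last 1000 nt, the ratio was 1.44, 1.32 and 1.28, so most of the contrast was with the more distant parts of genes.

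**Figure D1:**
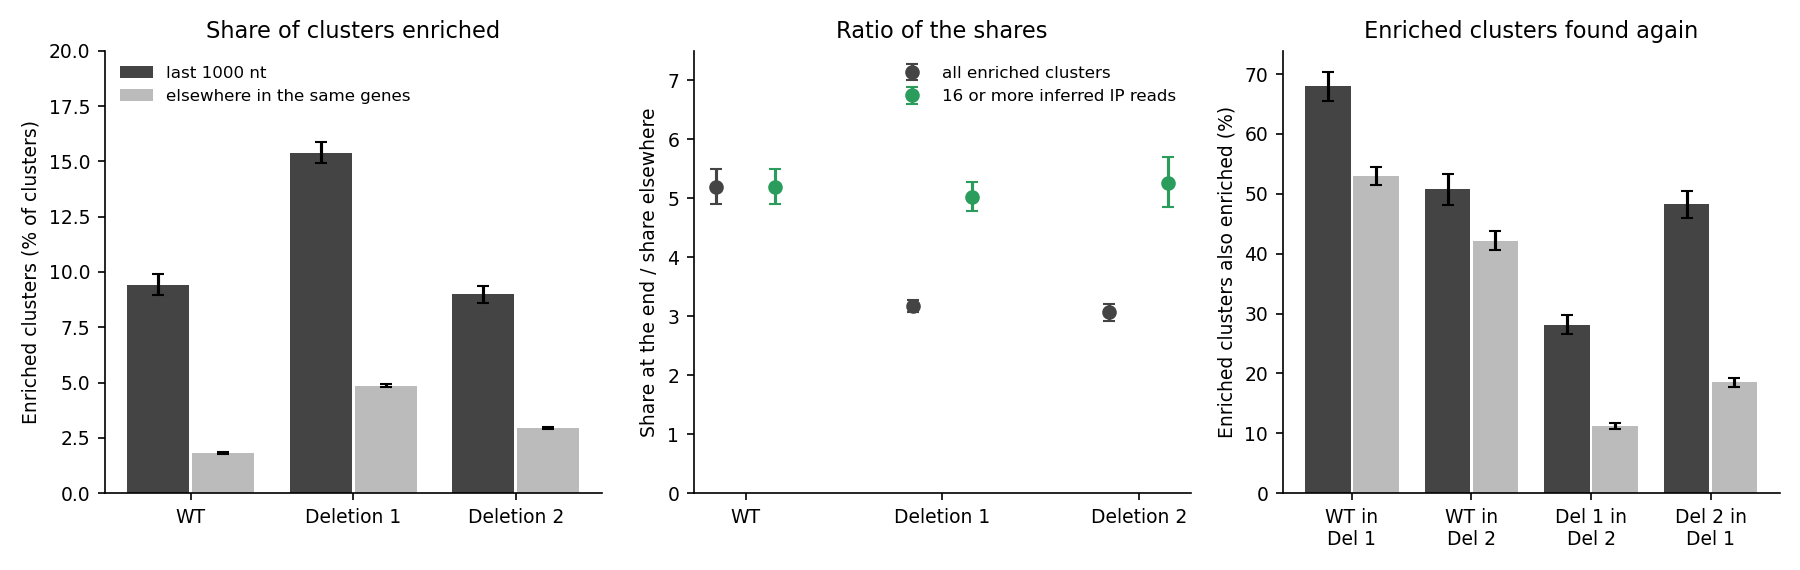
Left, the share of AGO2 clusters enriched, in percent, in the last 1000 nt (dark) and elsewhere in the same genes (light) of the 3 libraries; middle, the first share over the second, for all enriched clusters (black) and for those with 16 or more inferred IP reads (green); right, the share of enriched clusters of one library that an enriched cluster of another overlapped. Error bars are 95% intervals for counting error. The ratios of 5.19, 3.17 and 3.06 become 5.19, 5.02 and 5.26 at 16 or more reads.

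The deposited log2 IP over input was also higher at gene ends in WT and Deletion 1. Its median was 1.34 at gene ends and 0.76 elsewhere in WT, and 1.80 and 1.06 in Deletion 1. In Deletion 2 it was 1.25 in both, the value of 1 IP read over 1 input read in that library. Within genes that had both kinds of cluster, the median at the end was the higher in 4760 of 7245 genes in WT (65.7%), in 4671 of 8146 in Deletion 1 (57.3%) and in 4232 of 8146 in Deletion 2 (52.0%). The single best cluster of a gene was less often at its end, in 2183, 1803 and 1633 of these genes, where a median of 11, 17 and 17 other clusters per gene stood against it.

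Gene-end clusters were also wider. The median width was 76 nt at gene ends and 68 nt elsewhere in WT, and 60 nt against 54 nt in each Deletion library. Enriched gene-end clusters had a median of 119 nt in WT, 72 nt in Deletion 1 and 82 nt in Deletion 2, against 111, 50 and 54 nt for enriched clusters elsewhere. The narrower *Mov10* Deletion clusters were found at the ends and elsewhere alike.

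Clusters were sparse at the very end of genes and dense just before it. In genes with a gene-end cluster, 10.1% of the last 100 nt was covered in WT and 11.2% in each Deletion library. Coverage was highest from 100 to 200 nt before the end, at 22.5% in WT and 22.4% in both Deletion libraries, and came down to 12.6%, 13.1% and 13.1% in the last of the 100 nt steps, farthest from the end. The shape was alike in the 3 libraries, although WT shared almost no cluster coordinates with *Mov10* Deletion.

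Enrichment changed little with position inside the last 1000 nt and declined further upstream. In WT the share enriched in 100 nt steps was between 7.83% and 10.1%, and enriched clusters had their median 456.5 nt before the end, against 460 nt for the others. In the Deletion libraries the enriched clusters had their median at 451 and 469.5 nt. Per 1000 nt from the end, the share in WT was 9.32%, 7.04%, 6.46%, 4.48% and 4.01%, and 1.57% in the tenth step. In Deletion 1 it went from 15.3% to 5.80% over the same distance, and in Deletion 2 from 8.87% to 3.48%. With at least 16 inferred IP reads, Deletion 1 followed WT closely, from 8.87% to 2.15%, and Deletion 2 lay below both, from 3.40% to 0.824%. No step was seen at the edge of the window, where 8.94% of the WT clusters just inside and 8.97% just outside were enriched, 14.2% and 14.7% in Deletion 1, and 8.76% and 9.71% in Deletion 2.

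**Figure D2:**
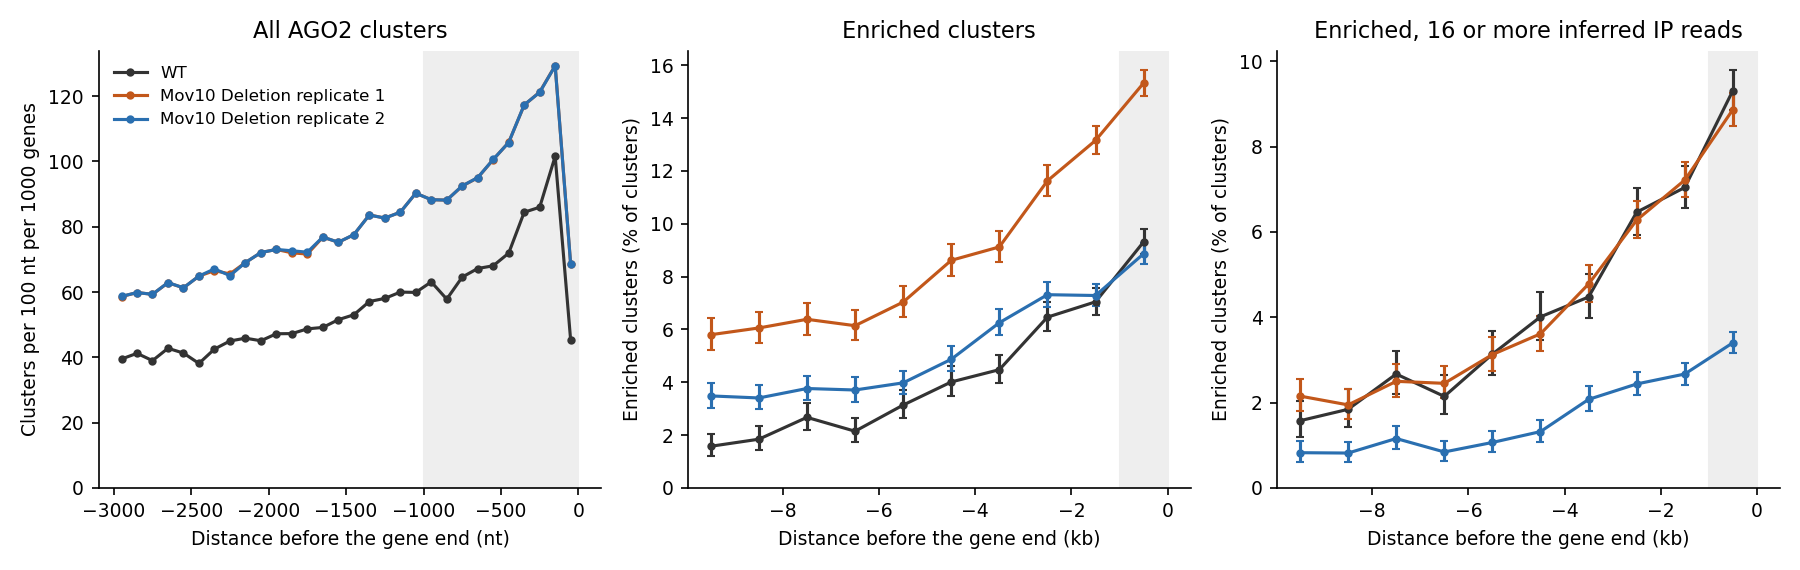
Distance before the gene end (x axes; the last 1000 nt is shaded) against clusters per 100 nt per 1000 genes (left), the share of clusters enriched in percent (middle), and the share enriched with 16 or more inferred IP reads (right), for WT (black) and Deletion 1 (orange) and Deletion 2 (blue). Points are 100 nt steps on the left and 1000 nt steps in the others, with 95% counting intervals; in the left panel the *Mov10* Deletion lines lie on each other.

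The other end of the same genes differed from the gene end. Clusters in the first 1000 nt were enriched in 1.90% of cases in WT (89 of 4690), 9.64% in Deletion 1 and 5.29% in Deletion 2. Clusters just past the gene end, where no gene lay on that strand, were few, with 399 in WT and 661 in each Deletion library. Of these, 3.26%, 9.38% and 5.14% were enriched.

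The length of gene end under a cluster could be compared in the 6710 genes that had one in every library. It had a median of 145.5 nt in WT and 167 nt in each Deletion library. The difference per gene, *Mov10* Deletion minus WT, had a median of 14 nt and quartiles of -37 and 66 nt, so genes moved in both directions, with more covered in 3849 genes, less in 2829 and the same in 32. A further 1133 genes had a gene-end cluster in WT alone and 2009 in both Deletion libraries alone. Because the WT clusters had other coordinates than those the Deletion libraries shared, cluster calling and genotype cannot be told apart here.

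Enriched gene-end clusters were found again in another library more often than those elsewhere. Of the WT ones, 68.0% were overlapped by an enriched cluster of Deletion 1 and 50.8% by one of Deletion 2, against 53.0% and 42.2% elsewhere. The share enriched in the library looked in was itself higher at gene ends, and relative to it the order turned round, with 4.42 and 5.65 times that share at gene ends and 10.9 and 14.4 times elsewhere. Between the Deletion libraries, 28.2% (26.6 to 29.7) of the enriched gene-end clusters of Deletion 1 were enriched in Deletion 2, against 11.2% elsewhere, and 48.3% of those of Deletion 2 were enriched in Deletion 1, against 18.5%. These were 3.13 and 3.14 times the share enriched in the other library at gene ends and 3.82 and 3.81 times elsewhere. With at least 16 inferred IP reads on the cluster asked about, these shares were 42.3% against 25.2% and 71.5% against 46.1%. Over clusters with identical coordinates, the log2 values of the Deletion libraries had a Pearson correlation of 0.25 at gene ends (n = 21633) and 0.018 elsewhere (n = 403404), with Spearman values of 0.20 and 0.0042. These points share peak calling and many rest on few reads.

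Counted by gene, 957 of 7888 genes with a gene-end cluster had an enriched one in WT (12.1%), 1884 of 8773 in Deletion 1 (21.5%) and 1216 in Deletion 2 (13.9%). Both Deletion libraries had one in 741 genes (8.45%), and all 3 libraries in 513, which is 53.6% of the WT genes and 69.2% of the 741. WT had one and neither Deletion library did in 148 genes, and both Deletion libraries without WT in 228. With at least 16 inferred IP reads in each call, these last counts were 302 and 56. That limit removed *Mov10* Deletion calls and no WT call, so it could only raise the first count and lower the second. For many genes the end was the only enriched place, in 603 of the WT genes (63.0%), 749 in Deletion 1 (39.8%) and 611 in Deletion 2 (50.2%). The most enriched clusters at one gene end were 7 in WT (*Arhgdia*, *Mknk2*, *Rfx1*), 9 in Deletion 1 (*Ist1*, *Ptbp1*, *Sema7a*, *Zbtb7a*) and 8 in Deletion 2 (*Sema7a*, *Vat1*).

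The genes named next were chosen by their enrichment in these libraries, so their values are a description. Among genes enriched at the end in all 3 libraries, *Igf2*, an imprinted fetal growth factor, had a log2 IP over input of 7.69 in WT, 7.19 in Deletion 1 and 6.28 in Deletion 2. *Ids*, a lysosomal sulfatase gene, had 6.32, 5.88 and 6.60, each with a −log10 p at the limit of 400. *Arhgdia*, which encodes a GDP dissociation inhibitor, had 6.86, 5.56 and 5.25, and all of its 7 gene-end clusters in WT and all 5 in each Deletion library were enriched. *Igf2* and *Ids* also had enriched clusters elsewhere in the gene, 18 of 21 and 3 of 3 in WT.

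*Cep85l*, a centrosomal protein gene, had enriched clusters at the end and none elsewhere in WT or Deletion 1. Its best cluster lay 143 nt before the end in every library (chr10:53273498-53273671 in WT, mm10), with a log2 of 6.62, 7.13 and 7.34 and an inferred 350, 242 and 136 IP reads over 3, 3 and 2 input reads. Of its 27 clusters elsewhere in WT and 63 in each Deletion library, 0, 0 and 3 were enriched. *Sema7a*, a membrane-anchored semaphorin, had 6 of 6, 9 of 9 and 8 of 9 gene-end clusters enriched, with best log2 values of 4.87, 4.64 and 4.26, against 0 of 4, 0 of 5 and 1 of 5 elsewhere. *H1f0*, a linker histone gene (5.41, 6.01 and 5.56), *Iglon5*, a neural adhesion gene (5.07, 4.70 and 4.35), and *Tubb4a*, a β-tubulin gene (3.96, 4.49 and 4.24), completed this group. Each was above the threshold in every library, as its choice requires.

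Genes enriched at the end in WT alone had values on both sides of the threshold, as their choice requires. *Nfix*, a transcription factor gene of neural development, had a log2 of 3.47 in WT and 2.91 and 2.73 in the Deletion libraries, at nearly the same place. Elsewhere in *Nfix*, 14 of 56 clusters were enriched in WT, 37 of 120 in Deletion 1 and 23 of 120 in Deletion 2. *Tagln3*, a neuronal transgelin gene, had 2.97 in Deletion 1 and 1.53 in Deletion 2, and its WT value lay just above the threshold of 3. Larger distances were seen for *Aplp2*, a relative of the amyloid precursor gene (3.84, 2.01 and 1.74), *Myh10*, a nonmuscle myosin gene (3.84, 2.44 and 1.72), *Peli3*, a ubiquitin ligase gene (3.24, 2.19 and 0.95), and *Gprasp2*, a receptor sorting gene that lies inside *Bhlhb9* on the same strand (3.49, 2.59 and 1.94).

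Genes enriched in Deletion 1 and Deletion 2 without WT had WT values from 2.26 to 2.89 in those named here. *Spock2*, a proteoglycan gene, had a log2 of 2.89 in WT, 3.71 in Deletion 1 and 3.92 in Deletion 2. *Prkar1a*, a regulatory subunit of protein kinase A, had 2.53, 3.46 and 3.58. *Zfp292*, a zinc finger gene, had 2.71, 3.32 and 5.25, and *Celf5*, an RNA-binding protein gene, 2.26, 3.66 and 4.38. The Deletion libraries lay above WT in each, as the choice of these genes requires.

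**Figure D3:**
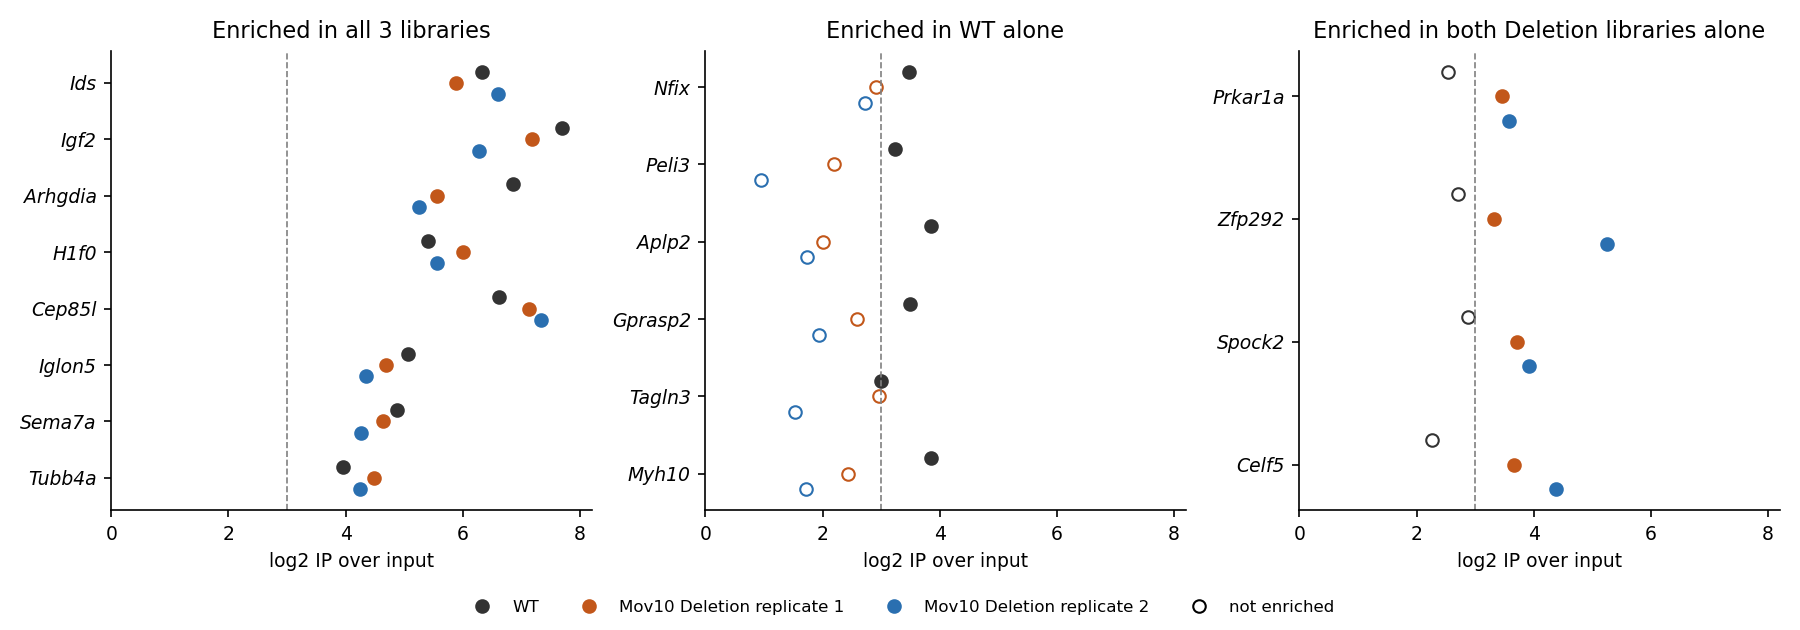
The log2 IP over input (x axis) of the best gene-end cluster of each gene in WT (black) and Deletion 1 (orange) and Deletion 2 (blue), for genes enriched in all 3 libraries (left), in WT alone (middle) and in both Deletion libraries alone (right). Filled points are enriched, open ones are not, and the dashed line marks a log2 of 3. The points of the left panel are all at or above 3.96, while those of the other panels lie on both sides of the line, as the choice of genes sets.

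*Numa1*, which encodes a protein of the mitotic spindle and nucleus, was enriched at the end in all 3 libraries, with its best cluster at another place in WT than in *Mov10* Deletion. In WT the best cluster lay 637 nt before the end, with a log2 of 4.66 and an inferred 30 IP reads over 1 input read. In the Deletion libraries it lay 156 nt before the end, with log2 values of 5.23 and 3.19 and 43 and 23 IP reads over 2 and 6 input reads. WT had 1 of 4 gene-end clusters enriched and the Deletion libraries 3 of 4, but not the same 3. The cluster 255 to 364 nt before the end had a log2 of 5.66, enriched, in Deletion 1 and 3.06, not enriched, in Deletion 2. Enrichment could be reached with fewer IP reads in the Deletion libraries (9 and 8) than in WT (16), and the part of this in these counts was not tested. The places of the best clusters were not exclusive. A cluster of the Deletion libraries that overlapped the WT one had a log2 of 2.38 in Deletion 1, not enriched, and of 3.84 in Deletion 2, enriched. At the place of the best Deletion cluster, WT had clusters with log2 values of 2.98 and 2.93, just below 3. *Mov10* itself had 1 gene-end cluster in each library, with 19 IP reads over 1 input read and enrichment in WT, and log2 values of 1.80 and 2.84, not enriched, in *Mov10* Deletion. The gene end lies outside the floxed exons, so these values do not check the deletion.

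Known targets of neural miRNAs were examined as lists, beside the share of all genes with a gene-end cluster that were enriched, 12.1%, 21.5% and 13.9%. Of miR-124 targets, genes of non-neuronal programs that this neuronal miRNA represses, 6 of 13 with a gene-end cluster were enriched in WT, 9 of 15 in Deletion 1 and 6 of 15 in Deletion 2. *Ptbp1*, a splicing repressor lowered during neuronal differentiation, had log2 values of 6.34, 5.95 and 6.46, with miR-124-3p assigned to its best cluster in every library. *Lamc1*, a laminin chain (5.22, 6.29 and 4.58), *Itgb1*, an integrin (3.97, 4.31 and 4.30), and *Ctdspl*, a phosphatase that acts with REST (5.25, 5.32 and 4.42), were also enriched in all 3. miR-124-3p was assigned to the best clusters of *Lamc1* and *Itgb1* in every library, but to that of *Ctdspl* in none. The best *Ctdspl* clusters lay 1015, 858 and 964 nt before the end, with 9 IP reads over 1 input read in Deletion 2. Its gene end had a miR-124-3p assignment in WT alone. *Rcor1*, *Sox9* and *Vamp3* were enriched in Deletion 1 alone, and *Ctdsp1* and *Jag1* in Deletion 2 alone.

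Of let-7 targets, 6 of 15, 8 of 15 and 8 of 15 were enriched. *Arid3a*, a DNA-binding protein gene, had 5.84, 6.21 and 4.48, and *Mycn*, a growth-promoting transcription factor gene, 4.30, 3.83 and 3.87. No let-7 was assigned to the best cluster of either in any library, but let-7b-5p was assigned elsewhere at the *Mycn* gene end in WT and Deletion 2. *Ccnd2*, a cyclin gene without a let-7 assignment at its end, had 2.69 in WT, not enriched, and 3.16 and 4.71 in *Mov10* Deletion. *Hmga1*, a chromatin protein gene, was enriched in WT (38 IP reads over 2 input reads) and Deletion 1 (3.19) and had 2.52, not enriched, in Deletion 2, each time with a let-7 assigned. Of miR-9 targets, 1 of 9, 1 of 10 and 0 of 10 were enriched, and the intervals of these shares include that of all genes in each library. The 1 was *Sirt1*, a deacetylase gene, at 3.28 and 3.21 with no miR-9 assigned.

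Of genes of the silencing machinery, 5 of 17, 5 of 16 and 4 of 16 were enriched. *Tnrc6a*, which encodes the GW182 scaffold that AGO2 recruits, had 3.73, 5.47 and 5.06, and *Fxr2*, a relative of FMRP, 4.69, 6.12 and 4.42. *Ago2* was enriched in WT (4.04) and in Deletion 2 (3.39), while both of its gene-end clusters in Deletion 1 had a log2 not above 0. Of microtubule genes, 1 of 19, 3 of 20 and 1 of 20 were enriched, with *Numa1* in each. *Tubb3*, a neuronal β-tubulin gene with abundant mRNA, had 2.94, 2.91 and 2.89, all just below 3.

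Of ribosomal protein genes, 2 of 46, 4 of 45 and 5 of 45 were enriched. These shares were 4.35% (0.531 to 14.8), 8.89% (2.48 to 21.2) and 11.1% (3.71 to 24.1), beside 12.1%, 21.5% and 13.9% of all genes. The intervals of WT and Deletion 2 include the share of all genes. *Rpl14* had 6.36, 4.68 and 3.91. *Rpl13*, whose window also holds the hairpin of Mir7079, had 3.15, 3.06 and 4.42 at a cluster off the hairpin. Processed copies make reads on ribosomal protein genes uncertain.

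Markers of the cell types of the brain were mostly not enriched at their ends, as was the case for genes at large. Of all genes with a gene-end cluster, 12.1%, 21.5% and 13.9% were enriched in WT, Deletion 1 and Deletion 2. The marker sets are small, and the intervals of all but the red cell set include these shares. Of 8 neuronal markers, all had a gene-end cluster, and 0, 1 and 0 were enriched in WT, Deletion 1 and Deletion 2, the 1 being *Snap25*. None of 5 markers of radial glia and astrocytes or of 3 of microglia was enriched in any library, and of the oligodendrocyte lineage 0 of 3, 2 of 4 and 1 of 4 were. Endothelial markers had 0 of 3, 1 of 4 and 1 of 4. Globin genes of red cells were enriched in 4 of 4 cases in WT, 4 of 5 in Deletion 1 and 3 of 5 in Deletion 2, but *Hba-a1* and *Hba-a2*, and *Hbb-bs* and *Hbb-bt*, are near-identical pairs whose reads cannot be assigned with confidence. Globin clusters were enriched in the libraries of both genotypes, and their part in the other values was not tested.

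Target clusters of chimeric reads lay on gene-end clusters more often than on clusters elsewhere. In WT, 58.2% of enriched gene-end clusters overlapped one, against 34.4% of enriched clusters elsewhere. The shares were 28.8% against 9.14% in Deletion 1 and 24.5% against 6.71% in Deletion 2. Among clusters that were not enriched, they were 13.2% against 2.72%, 9.23% against 1.87% and 5.16% against 0.913%. Enriched gene-end clusters were also the wider ones, as given above, and the part of width in these shares was not tested.

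Of the miRNA assignments, 3451 of 22074 in WT (15.6%), 3031 of 30526 in Deletion 1 (9.93%) and 1473 of 13468 in Deletion 2 (10.9%) fell on a gene-end cluster. miR-124-3p, a miRNA of neurons, held 39.1%, 36.0% and 42.1% of these, followed by miR-9-5p with 7.74%, 5.87% and 6.52% and miR-125b-5p with 7.04%, 5.38% and 5.23%. miR-26a-5p had the highest share of its assignments at gene ends among those compared, 23.5% in WT and 19.6% and 21.3% in *Mov10* Deletion. miR-181a-5p had 22.9%, 13.4% and 15.5%. miR-466i-5p had the lowest, 5.48%, 2.99% and 3.15%. For miR-125b-5p, the share was 17.9% in WT and 9.62% and 10.4% in *Mov10* Deletion.

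Genes with short 3'UTRs had fewer enriched gene-end clusters. The longest annotated 3'UTR of each gene was taken from GRCm39 by gene name, which matched 98.0% of the genes with a gene-end cluster. Where it was under 500 nt, 4.86% of the gene-end clusters were enriched in WT, 149 of 1487 in Deletion 1 and 7.06% in Deletion 2. From 1000 to 2000 nt the shares were highest, at 11.1%, 17.3% and 9.94%, and at 4000 nt or more they were 10.8%, 14.7% and 8.57%. In genes with short 3'UTRs the last 1000 nt also holds coding sequence or introns, and which clusters lay in them was not resolved.

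**Figure D4:**
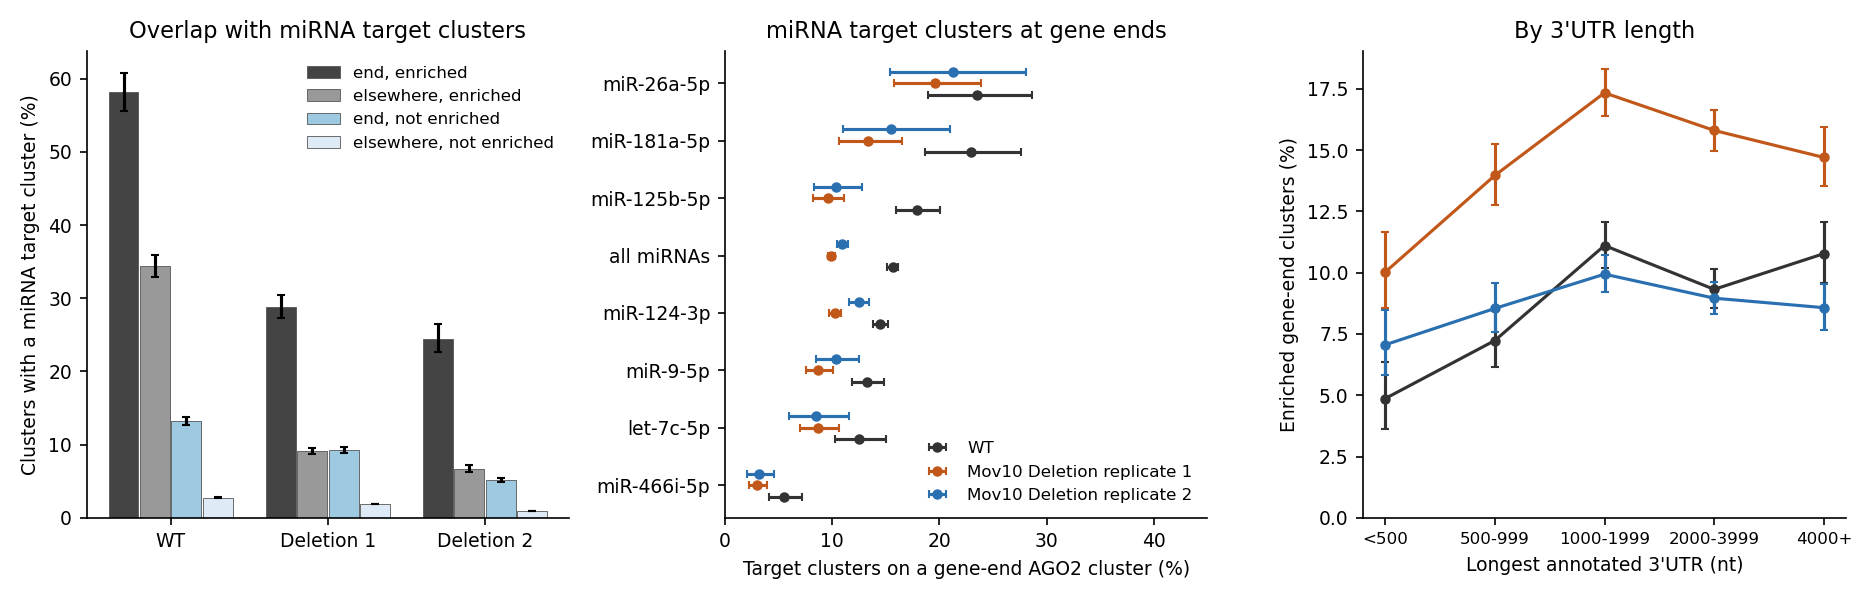
Left, the share of AGO2 clusters that overlapped a miRNA target cluster, in percent, for enriched and other clusters at gene ends and elsewhere; middle, the share of target clusters of each miRNA that fell on a gene-end AGO2 cluster; right, the share of gene-end clusters enriched by the longest annotated 3'UTR of the gene. Bars and lines give 95% counting intervals; WT is black and Deletion 1 and 2 orange and blue in the middle and right panels.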

How the data were processed

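The authors pruned molecular identifiers with UMI-tools 1.1.1, used cutadapt 3.2 on the adapters, discarded repeat reads, aligned to mm10 with STAR 2.7.7a, collapsed PCR duplicates and ran CLIPper. Each deposited AGO2 cluster has a log2 fold (IP over input) and a −log10 p-value, which stops at 400. For chimeric reads, miRNAs were matched with Bowtie 1.2.3, and the deposited target clusters carry a miRNA name and a score, whose meaning is not given in the sources used here. Inputs entered only through these values.

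RefSeq gene bodies of mm10 were used, with a strand for 21472 of 21900 protein-coding genes (98.0%). Strands came from RefSeq by gene ID for 17492 and otherwise from GENCODE by symbol, and the sources differed for 132 of 22238 genes. No mm10 exons were used, so UTR and coding clusters were not told apart. 3'UTR lengths and seed sites are of GRCm39, and no coordinates were converted. Reads were inferred as whole IP and input reads that fit both ratio and p-value (tolerance 0.001, up to 60 input reads), which found a pair for 99.9%, 99.6% and 99.7% of enriched gene-end clusters in WT, Deletion 1 and Deletion 2. Placement and read inference were tested on simulated data. Python 3.11.15, numpy 2.4.6, pandas 2.3.3, scipy 1.17.1 and matplotlib 3.10.9 were used.

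With 1 WT library no test was run, and no p-value was computed across clusters or genes. Intervals of ratios are from the log normal approximation. Named genes were the 8 enriched in all libraries with the highest lowest −log10 p, the 6 highest in WT alone, the 6 in both *Mov10* Deletion libraries alone, *Numa1*, *Mov10* and up to 6 members of each list with the highest median log2. The best cluster was the enriched one with the highest −log10 p. Some items covered by these rules are not reported here. Members, lists and rules were chosen with earlier results of these data known. Alternatives changed the window, the thresholds, the comparison set, the least width or reads, and the libraries used.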

Additional observations from a re-analysis of the deposited data

How the results depend on the processing

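Of 168 values under alternatives, 103 stayed within the 95% interval of the reported value or, for counts of genes, within 1.5 times it, 65 moved further and no difference changed sign. Where 3 values follow each other they are of WT, Deletion 1 and Deletion 2. The ratio of enriched shares was 4.82 in WT with a 500 nt window, 1.44, 1.32 and 1.28 against clusters up to 5000 nt before the end, 4.81, 4.83 and 4.30 at a −log10 p of at least 5, 4.41 in WT at a log2 of at least 2, and 5.02 and 5.26 in Deletion 1 and Deletion 2 with at least 16 inferred IP reads. The difference of the log2 medians, end minus elsewhere, was 0.74 in WT and 0.85 in Deletion 1 with a 500 nt window, 0.68 and 0.78 with 2000 nt, 0.041 and 0.19 against the nearer clusters, and 0.72, 0.78 and 0.18 for clusters of at least 20 nt. The difference of the median widths was 12, 9 and 9 nt with 500 nt, 5, 4 and 4 nt with 2000 nt, 11, 8 and 8 nt against the nearer clusters, and 5 nt in both Deletion libraries with clusters wholly inside the window or of at least 20 nt. At a −log10 p of at least 5, enriched clusters had their median 485 nt before the end in WT, and 67.7%, 39.96% and 34.9% overlapped a miRNA target cluster. Genes enriched at the end then numbered 636, 1136 and 679, with 456 in both Deletion libraries, 330 in all 3, 90 in WT alone and 126 in both Deletion libraries alone. With 500 nt there were 782 in Deletion 2, 440 in both, 307 in all 3 and 133 in both alone, with 2000 nt 1114 in both and 366 in both alone, and at a log2 of at least 2 there were 802 in all 3. With at least 16 inferred IP reads there were 1136 in Deletion 1, 477 in Deletion 2, 364 in both and 308 in all 3. There were then 302 in WT alone and 56 in both alone, against 148 and 228 without this limit. The limit removed no WT call, so it could only raise the count in WT alone and lower that in both alone. Leaving out Deletion 1 or Deletion 2 gave 1216 to 1884 genes for *Mov10* Deletion, 637 to 1141 without WT, and 214 to 378 in WT alone. The overlap between Deletion 1 and Deletion 2 at 16 reads, chosen after seeing the data, was 42.3% and 71.5% at gene ends and 25.2% and 46.1% elsewhere. Strands from GENCODE alone, also chosen after seeing the data, moved no value beyond these limits (for example 947, 1861 and 1199 genes). No paired analysis was possible because WT had 1 library and no result came from a test. The causes of these moves were not tested, and depth is known only through the inferred reads.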
